A study of Mus musculus with 36 samples.

Results

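The 7 genes described here encode subunits of the GABA-A receptor: the alpha subunits Gabra2, Gabra3, Gabra4 and Gabra5, the beta subunits Gabrb1 and Gabrb2, and the delta subunit Gabrd. They were chosen by name, and all 7 were found among the 26709 genes of the expression table. The study stimulated primary cortical neurons of E15 CD-1 mouse embryos, pooled over all embryos and kept for 7 days in vitro. Every culture was silenced for 2 h with 100 µM AP-5, which blocks NMDA receptors, and 1 µM TTX, which blocks sodium channels. It was then given BDNF (10 ng/ml), a neurotrophin that acts through the receptor TrkB, or KCl (55 mM) as a depolarising stimulus. Cells were collected after 1, 6 or 10 h. Control cultures were not stimulated and remained under both blockers until collection. The study describes no removal of the blockers from the stimulated cultures, for which the same doses are listed. Each of these 9 groups had 2 RNA-seq libraries and 2 ATAC-seq libraries, ATAC-seq being an assay of open chromatin by insertion of the Tn5 transposase. The study calls them biological replicates. As tissue was pooled over embryos and the labels do not say whether the 2 libraries were separate cultures, p-values are taken to measure the spread between libraries.

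GABA-A receptors are chloride channels opened by the transmitter GABA, and each is an assembly of several subunits. Alpha and beta subunits form the GABA binding site, the alpha subunit and a neighbouring gamma subunit form the benzodiazepine site, and delta takes the place of gamma in receptors outside the synapse. Receptors with alpha 2 or alpha 3 are mostly synaptic, whereas those with alpha 4 and delta, or with alpha 5, carry much of the tonic current. In the developing cortex alpha 2, alpha 3 and alpha 5 are abundant. The genes lie in clusters. In mm10, Gabra2 (ENSMUSG00000000560, chr5:70957597-71095849, minus strand), Gabra4 (ENSMUSG00000029211, chr5:71569749-71658308, minus strand) and Gabrb1 (ENSMUSG00000029212, chr5:71658113-72149037, plus strand) share a cluster on chromosome 5. Gabra5 (ENSMUSG00000055078, chr7:57407672-57510059, minus strand) lies near Gabrg3. Gabrb2 (ENSMUSG00000007653, chr11:42419757-42629028, plus strand), Gabra3 (ENSMUSG00000031343, chrX:72432681-72656848, minus strand) and Gabrd (ENSMUSG00000029054, chr4:155384980-155398112, minus strand) lie apart from these. Gabra4 and Gabrb1 start head to head, and their exons overlap by 46 bp. An antisense transcript, Gm9962, covers 148 bp of the Gabra5 exons. The strand setting of the counting is not given in the sources used here, so reads in these stretches cannot be assigned to one strand.

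The sequence in front of a start is shown for the 3 transcription starts on which the RNA and chromatin results below turn: the start shared head to head by Gabra4 and Gabrb1, the Gabra5 start, whose peak was lower with KCl, and the Gabra2 start, whose peak changed its calls with the scaling. They are RefSeq sequences of GRCm38.p6, the build also called mm10, and each lies in front of the annotated start, on the gene's strand. The Gabra4 stretch ends 55 bp before the start and lies within the Gabrb1 gene body. Capitals mark matches, on either strand, to the SP motif GGGCGG, which is found in 35.7% of 32851 RefSeq promoter windows of 300 bp. None of the stretches held the CRE TGACGTCA (1.79% of windows), its shorter form TGACG (20.8%), the AP-1 motif TGANTCA (7.81%), or the EGR motifs GCGTGGGCG (0.612%) and GCGGGGGCG (2.91%). A match is a description of letters and not a shown binding site.
Gabra4, chr5:71658364-71658558, minus strand: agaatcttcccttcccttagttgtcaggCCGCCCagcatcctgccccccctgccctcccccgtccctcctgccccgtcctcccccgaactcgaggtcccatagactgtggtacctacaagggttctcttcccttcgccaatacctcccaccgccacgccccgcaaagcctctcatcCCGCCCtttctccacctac
Gabra5, chr7:57510060-57510309, minus strand: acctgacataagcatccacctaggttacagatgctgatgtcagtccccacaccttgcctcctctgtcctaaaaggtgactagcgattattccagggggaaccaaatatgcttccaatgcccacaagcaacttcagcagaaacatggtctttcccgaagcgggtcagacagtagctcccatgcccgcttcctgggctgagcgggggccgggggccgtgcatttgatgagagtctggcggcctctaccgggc
Gabra2, chr5:71095850-71096099, minus strand: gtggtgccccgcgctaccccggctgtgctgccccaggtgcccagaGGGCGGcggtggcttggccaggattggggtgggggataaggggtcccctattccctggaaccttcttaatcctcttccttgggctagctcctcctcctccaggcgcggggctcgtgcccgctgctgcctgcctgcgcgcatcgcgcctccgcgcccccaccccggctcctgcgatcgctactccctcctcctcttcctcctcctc

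Both intronic peaks that were called gained after BDNF and hold the AP-1 motif are shown next, with TGANTCA in capitals (plus strand). This motif was present in the central 300 bp of 15.6% of all 58177 peaks, and in 6 of the 27 peaks of the members. The peak within Gabra4 is given whole and that within Gabrb1 by its central 300 bp.
Gabra4 intron, chr5:71616879-71617000: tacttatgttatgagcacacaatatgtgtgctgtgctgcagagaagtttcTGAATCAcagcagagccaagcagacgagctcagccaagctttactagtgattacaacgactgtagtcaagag
Gabrb1 intron, chr5:71829029-71829328: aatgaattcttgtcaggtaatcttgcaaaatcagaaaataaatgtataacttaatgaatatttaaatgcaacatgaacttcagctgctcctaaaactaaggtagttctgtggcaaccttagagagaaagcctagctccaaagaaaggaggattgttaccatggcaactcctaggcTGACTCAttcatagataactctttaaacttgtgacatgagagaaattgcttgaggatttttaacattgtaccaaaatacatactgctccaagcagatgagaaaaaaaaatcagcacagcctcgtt

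Depth ranged from 8.51 to 36.7 M counted reads per RNA library (median 11.6 M) and from 1.24 to 6.24 M per ATAC library (median 3.55 M), M standing for mega. The shallowest ATAC library was the second of KCl at 6 h. RNA values are given as normalised counts, which the authors scaled by library, and changes as log2 fold changes of the normalised count plus 1, with the standard error. A gene was called at an adjusted p below 0.1, the threshold of the study, among 16209 genes tested with limma. The 6 controls of all times formed 1 group. No gene was called between controls of 6 h and 1 h or of 10 h and 1 h, by limma (0.0% of genes in both) or by edgeR, and limma gave 164 and 181 genes an unadjusted p below 0.05. Libraries of a group differed most in KCl at 6 h, with a chi-square per degree of freedom of 36.4 against 2.33 to 9.77 in the other 8 RNA groups. All 6 pan-neuronal markers were well above the filter, Map2 being at 23811 normalised counts in controls. Markers of astrocytes (10562 to 15188 summed over 6 genes in controls), of the oligodendrocyte lineage (5954 to 6371 over 6 genes) and of dividing cells (3678 to 6233 over 3 genes) were present too. The oligodendrocyte-lineage sum lay below every control with KCl at 1 h (4493 and 5048) and BDNF at 6 h (5592 and 5697). It lay above every control with KCl at 6 h (6911 and 7247) and 10 h (6588 and 7246). The dividing-cell sum was 3211 and 3518 in the BDNF libraries of 6 h and 2633 and 2839 in the KCl libraries of 6 h, below every control. The astrocyte sum was 9451 and 10076 with KCl at 10 h, also below every control. The neuronal sum was 62801 to 70348 in controls, 55911 and 59315 with BDNF at 6 h and 51958 and 61704 with KCl at 6 h, below every control. The excitatory-neuron sum (5 genes) was 5193 to 5930 in controls. BDNF libraries of 1 h lay below this range (3817 and 3867) and KCl libraries of 6 h above it (7062 and 7139). The sum of 10 inhibitory-neuron markers was 13657 to 16550 in controls and 23167 and 23180 with KCl at 6 h. Its members did not move together: Sst had means of 2130 in controls and 6780 with KCl at 6 h and Gad1 2687 and 5087, whereas Lhx6 had 755 and 562 and Dlx1 4655 and 3481. In bulk cultures fewer cells of a type and less RNA per cell cannot be told apart, and the part of cell composition in the changes below was not tested.

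Both stimuli left most subunit RNAs close to controls at 1 h and moved them apart by 6 h. With BDNF, Gabra5 rose 2.53-fold at 6 h and 2.29-fold at 10 h, while Gabra3, Gabrb1 and Gabrd fell at both times. With KCl, Gabra4, Gabra5 and Gabrb1 rose at both times. Gabra2 and Gabrd were also called higher at both times. However, 1 KCl library lay within the control range for Gabra2 at 6 h and for Gabrd at 10 h. By 10 h each of the 7 RNAs was lower after BDNF than after KCl.

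**Figure D1:**
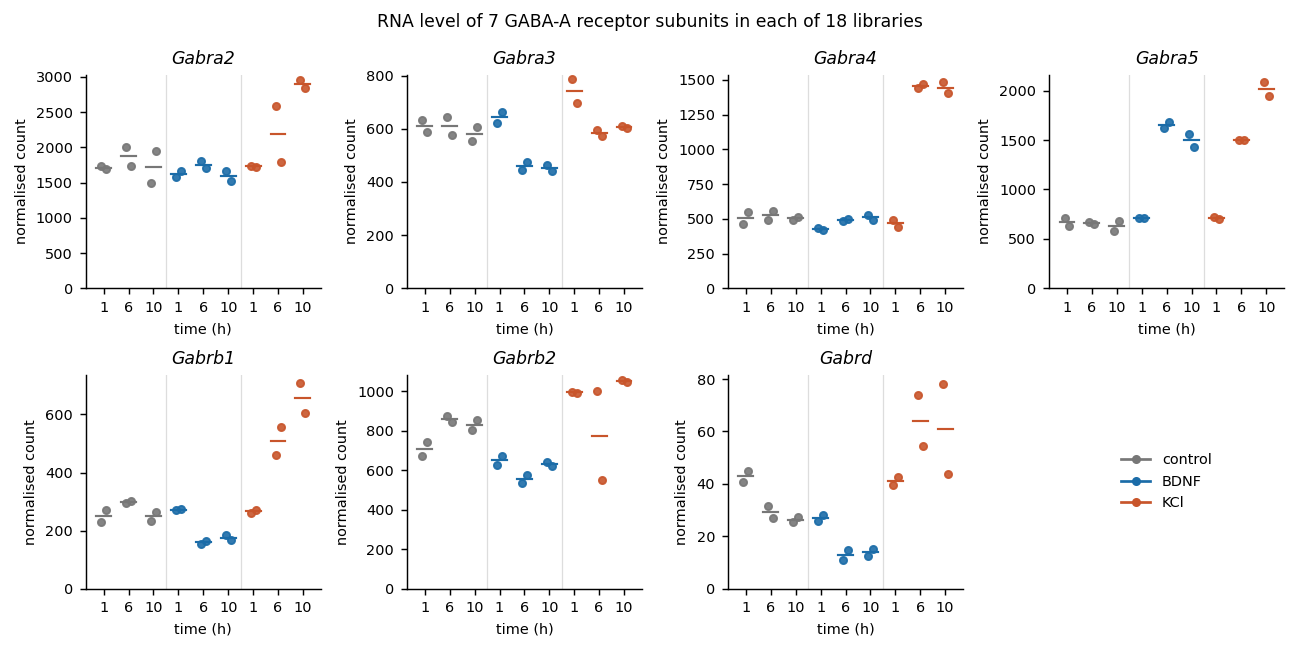
Normalised count (vertical axis, from 0) of each of the 7 subunit RNAs in 18 libraries, by time in hours, with controls in grey, BDNF in blue and KCl in orange. Each point is a library and each bar the mean of 2. Gabra5 stands above every control with both stimuli at 6 and 10 h, whereas Gabra4 does so only with KCl.

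Against controls, 1 of the 7 members was called, lower, with BDNF at 1 h, where 40.4% of all tested genes were called and 19.0% were lower. At 6 h of BDNF 5 members were called, where 43.3% of all genes were, 1 member being higher (22.1% of genes) and 4 lower (21.1%). At 10 h 4 were called against 40.6% of genes, 1 higher (21.1%) and 3 lower (19.5%). With KCl 2 members were called at 1 h against 54.7% of genes, both higher (26.5%). At 6 h of KCl 5 were called against 66.5% of genes, all higher (33.4%). At 10 h of KCl 6 were called against 57.2% of genes, again all higher (29.0%). The median log2 fold change of the members was -0.38 with BDNF and 0.93 with KCl at 6 h, beside medians of -0.003 and 0.008 over all genes. These 6 comparisons share the same controls.

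Gabra5, the alpha subunit of extrasynaptic receptors of hippocampus and developing cortex, was the member that rose with both stimuli. In controls its normalised count ran from 582 over a median of 657 to 709. The BDNF libraries held 707 and 715 at 1 h, 1624 and 1679 at 6 h, then 1559 and 1433 at 10 h. The KCl libraries held 721 and 701 at 1 h, 1499 and 1501 at 6 h, then 2088 and 1941 at 10 h. The libraries of 6 and 10 h thus lay above all 6 controls, and those of 1 h did not separate from them. The log2 fold change with BDNF was 1.34 ± 0.07 at 6 h (2.53-fold, adjusted p = 2.70e-12) and 1.196 ± 0.07 at 10 h (adjusted p = 3.57e-11). With KCl it was 1.202 ± 0.07 at 6 h (adjusted p = 4.34e-12) and 1.62 ± 0.07 at 10 h (3.08-fold, adjusted p = 7.39e-14). At 6 h the difference between BDNF and KCl, 0.14 ± 0.08 on the log2 scale, missed the threshold (adjusted p = 0.18). At 10 h BDNF was lower by 0.43 ± 0.08 (adjusted p = 3.58e-04).

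Gabra4, the alpha subunit that partners delta in forebrain receptors, rose with KCl at 6 and 10 h. Controls ran from 462 over 504 to 556 normalised counts. With KCl the libraries held 492.7 and 440.5 at 1 h, 1441 and 1470 at 6 h, then 1485 and 1403 at 10 h. With BDNF they held 435 and 421 at 1 h, 486 and 496 at 6 h, then 530 and 493 at 10 h. The KCl libraries of 6 and 10 h were well above the highest control, and the BDNF libraries of these times lay within the control range. The change with KCl was 1.51 ± 0.08 at 6 h (2.85-fold, adjusted p = 5.04e-13) and 1.497 ± 0.08 at 10 h (adjusted p = 1.16e-12). BDNF gave a fall of 0.26 ± 0.08 at 1 h (adjusted p = 0.012), and both of its libraries lay below every control. This call was lost without the second BDNF library (-0.23, adjusted p = 0.117). The direct difference of BDNF minus KCl was -1.57 ± 0.09 at 6 h (adjusted p = 2.17e-11) and -1.49 ± 0.09 at 10 h.

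Gabra2 and Gabra3, alpha subunits of synaptic receptors that are abundant before birth, moved less and in different ways. Gabra2 ran from 1489 over 1734 to 2006 in controls and stayed at 1522 to 1803 in all 6 BDNF libraries. With KCl it was 1737 and 1720 at 1 h, 2592 and 1786 at 6 h, then 2960 and 2844 at 10 h. Only the KCl libraries of 10 h lay together above the controls, since the second library of 6 h fell among them. The rise with KCl was 0.72 ± 0.11 at 10 h (1.65-fold, adjusted p = 2.39e-05) and 0.29 ± 0.11 at 6 h (adjusted p = 0.028). The value of 6 h was 0.02 without the first KCl library (adjusted p = 0.86) and 0.20 against controls of 6 h alone (adjusted p = 0.23).

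Gabra3 ran from 555 over 597 to 645 in controls. With BDNF it was 622 and 664 at 1 h, 445 and 476 at 6 h, then 462 and 443 at 10 h. With KCl it was 787 and 696 at 1 h, 597 and 572 at 6 h, then 610 and 602 at 10 h. The BDNF libraries of 6 and 10 h lay below all controls, and the KCl libraries of 1 h lay above them. Gabra3 fell with BDNF by 0.38 ± 0.07 at 6 h (adjusted p = 3.27e-04) and by 0.41 ± 0.07 at 10 h (adjusted p = 2.25e-04). With KCl it rose by 0.30 ± 0.07 at 1 h (adjusted p = 0.0017) and was -0.04 and 0.02 from controls at 6 and 10 h.

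**Figure D2:**
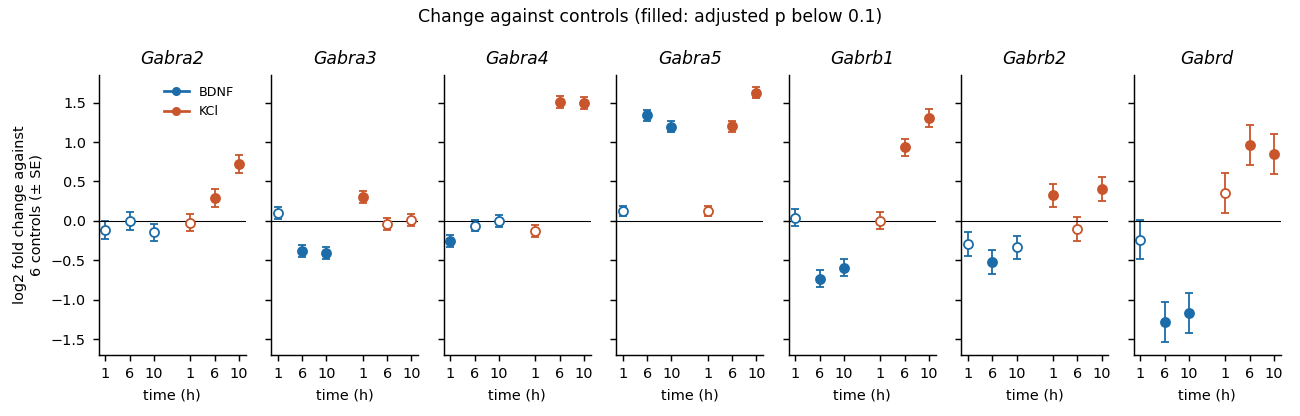
Log2 fold change against the 6 controls (vertical axis, bars ± 1 standard error) for each of the 7 members by time in hours, with BDNF in blue and KCl in orange. Filled points were called at an adjusted p below 0.1. Gabrb1 and Gabrd have filled blue points below 0 and filled orange points above 0 at both 6 and 10 h.

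Gabrb1, a beta subunit, moved in opposite directions with BDNF and KCl. Controls ran from 230 over 268 to 302 normalised counts. The BDNF libraries held 269 and 275 at 1 h, 153 and 165 at 6 h, then 184 and 167 at 10 h. The KCl libraries held 262 and 269 at 1 h, 459 and 558 at 6 h, then 709 and 606 at 10 h. At 6 and 10 h every BDNF library was below, and every KCl library above, the controls. The log2 fold change was -0.73 ± 0.11 with BDNF at 6 h (adjusted p = 1.65e-05) and -0.59 ± 0.11 at 10 h (adjusted p = 2.68e-04). With KCl it was 0.93 ± 0.11 at 6 h (adjusted p = 2.00e-07) and 1.304 ± 0.11 at 10 h (2.47-fold, adjusted p = 2.98e-09). Between the stimuli Gabrb1 was 3.17-fold higher with KCl at 6 h (adjusted p = 1.60e-09) and 3.72-fold higher at 10 h (adjusted p = 3.96e-10).

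Gabrd, the delta subunit of extrasynaptic receptors, was the lowest of the members, and it also moved in opposite directions. Controls ran from 25.2 over 29.4 to 45.0 normalised counts. The BDNF libraries held 25.9 and 28.2 at 1 h, 10.8 and 14.6 at 6 h, then 12.4 and 15.1 at 10 h. The KCl libraries held 39.5 and 42.8 at 1 h, 73.7 and 54.4 at 6 h, then 78.2 and 43.6 at 10 h. The BDNF libraries of 6 and 10 h lay below the controls, and the KCl libraries of 6 h above them, while the second KCl library of 10 h fell within the control range. Gabrd fell by 1.28 ± 0.25 with BDNF at 6 h (adjusted p = 3.94e-04) and by 1.17 ± 0.25 at 10 h (adjusted p = 0.0012). It rose by 0.96 ± 0.25 with KCl at 6 h (adjusted p = 0.0022) and by 0.85 ± 0.25 at 10 h (adjusted p = 0.0076). Without the first KCl library of 10 h the last value was 0.43 and no longer passed the test. The controls themselves were highest at 1 h, with 40.7 and 45.0 against 25.2 to 31.3 later, and set against controls of the same time alone the 4 values of 6 and 10 h were -1.15, -0.89, 1.10 and 1.12, each still called. KCl exceeded BDNF 4.74-fold at 6 h (adjusted p = 3.16e-06) and 4.04-fold at 10 h.

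Gabrb2, a beta subunit abundant in the adult brain, had 2 uneven libraries with KCl at 6 h. Controls ran from 674 over 823 to 872. The BDNF libraries held 626 and 674 at 1 h, 537 and 575 at 6 h, then 641 and 621 at 10 h. The KCl libraries held 998 and 993 at 1 h, 999.9 and 549 at 6 h, then 1057 and 1048 at 10 h. The KCl libraries lay above all controls apart from the second library of 6 h, which lay below them. Gabrb2 fell by 0.52 ± 0.15 with BDNF at 6 h (adjusted p = 0.014), a call lost without the first BDNF library (-0.47, adjusted p = 0.12). At 10 h its value of -0.33 ± 0.15 missed the threshold (adjusted p = 0.101), although the libraries did not overlap the controls, and it passed with edgeR (adjusted p = 0.098) and DESeq2 (adjusted p = 0.047). With KCl it rose by 0.32 ± 0.15 at 1 h (adjusted p = 0.089) and by 0.40 ± 0.15 at 10 h (adjusted p = 0.035). The value of 10 h missed the threshold against controls of 10 h alone (0.35, adjusted p = 0.14). Both of these rises lost the call when either KCl library of their time was left out, with adjusted p of 0.26 and 0.24 at 1 h and 0.15 and 0.14 at 10 h. The rise at 1 h was also lost without 3 single controls. The value at 6 h with both KCl libraries was -0.10 ± 0.15 (adjusted p = 0.58). It was 0.33 without the second library and -0.54 without the first, so the direction at 6 h rests on which library is kept. With 1 library left in a group, here and in the other such fits, that library is assumed to vary like the other groups.

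The direct comparison asked how far the 2 stimuli differed at the same time. At 1 h 2 members were called against 42.8% of genes, Gabra3 and Gabrb2, both lower with BDNF (18.2%). The Gabra3 call was lost with no filter (adjusted p = 0.119), with DESeq2 (adjusted p = 0.113), without either BDNF library and without the first KCl library (adjusted p = 0.44). At 6 h 6 were called against 57.3% of genes, all but Gabra5 and all lower with BDNF (27.8%). At 10 h all 7 were called against 45.0% of genes, all lower (21.8%), by a median of 0.87 on the log2 scale. The smallest difference at 10 h was that of Gabra3, -0.42 ± 0.09 (adjusted p = 8.07e-04), and the largest that of Gabrd, -2.01 ± 0.31 (adjusted p = 2.29e-05). At 6 h the difference of Gabrb2 was 0.02 without the first KCl library, and those of Gabra2 and Gabrb2 (-0.29 and -0.41 with both) lost the call when this library or either BDNF library was left out.

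Over time, 4 members were called between 1 and 6 h of BDNF, Gabra5 higher and Gabra3, Gabrb1 and Gabrd lower, where 33.6% of genes were called, 15.8% higher and 17.7% lower. No member was called between 6 and 10 h of BDNF, where 0.216% of genes were called by limma and 0.345% by edgeR, and none of the 7 had an unadjusted p below 0.05. With KCl all 7 were called between 1 and 6 h (59.6% of genes), 5 higher (30.9%) and Gabra3 and Gabrb2 lower (28.7%). The Gabrb2 difference was -0.43 with both KCl libraries of 6 h and 0.01 without the second. Without 1 library at a time 4 to 6 members were called between 1 and 6 h of KCl. Gabrd (0.61, adjusted p = 0.0997), Gabra2 (0.32, adjusted p = 0.0557) and Gabrb2 each lost the call in 3 of these fits, and Gabrd also with a replicate block (adjusted p = 0.103). Between 6 and 10 h of KCl 4 were called against 22.5% of genes, all higher (12.9%), namely Gabra2, Gabra5, Gabrb1 and Gabrb2. Without 1 library at a time these 4 calls became 1 to 3, and Gabra5 was called each time. Gabra4 was at -0.01 ± 0.09 on the log2 scale over that interval.

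To compare levels between subunits, normalised counts were divided by the merged exon length of the gene. In controls Gabra2 had 231 ± 24.4 counts per kb (SD, n = 6), followed by Gabra5 with 220 ± 14.7, Gabra3 with 153 ± 8.78 and Gabrb2 with 126 ± 12.0. Gabra4 had 84.1 ± 6.00, Gabrb1 19.2 ± 2.15 and Gabrd 11.4 ± 2.84. Gabra2 and Gabra5 overlapped in range, and no other neighbours in this order did. After KCl for 10 h the order by level per kb was Gabra5, Gabra2, Gabra4, Gabrb2, Gabra3, Gabrb1 and Gabrd, with 677, 380, 237, 165, 154, 47.5 and 21.2. After BDNF for 10 h it kept the control order but for Gabra5, which led with 503. Annotated exons need not all be used in these cells, so levels per kb are approximate.

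As a share of the summed level per kb of the 4 alpha genes described here, Gabra5 made up 31.9% ± 1.09 in controls (SD, n = 6), 56.5% ± 0.69 with BDNF at 6 h and 55.2% ± 0.21 at 10 h (n = 2 each). With KCl it made up 42.9% ± 2.78 and 46.7% ± 0.58. The share of Gabra4 was 12.3% ± 1.21 in controls, 8.20% ± 0.03 with BDNF at 6 h and 20.3% ± 1.58 with KCl at 6 h. The share of Gabra3 was 22.3% ± 0.73 in controls and lay between 10.7% and 12.7% on average in the 4 stimulated groups of 6 and 10 h. That of Gabra2 was 33.5% ± 1.64 in controls and 22.9% to 26.2% on average in these groups. These shares are descriptions, and a share can fall because another gene rose.

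**Figure D3:**
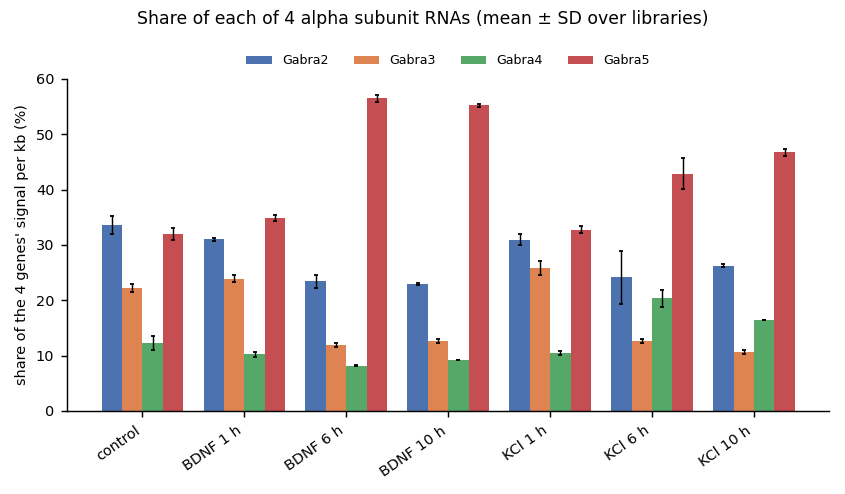
Share in percent (vertical axis, from 0) of Gabra2, Gabra3, Gabra4 and Gabra5 in their summed RNA level per kb, in controls (n = 6) and 6 stimulated groups (n = 2 each), with bars ± SD. The Gabra5 bar rises from 31.9% to 56.5% with BDNF at 6 h, and the Gabra4 bar is largest with KCl at 6 h, at 20.3%.

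Of 9 other GABA-A subunit genes compared here, Gabrg1, Gabrg3 and Gabrq passed the filter of a mean of 10 normalised counts. Gabra6, Gabre, Gabrp, Gabrr1, Gabrr2 and Gabrr3 did not. Of the 3 that passed, 0 were called with BDNF at 1 h, 2 were lower at 6 h and 1 was lower at 10 h. With KCl 1 was higher at 1 h, 2 were higher and 1 lower at 6 h, and all 3 were higher at 10 h. Of all genes 21.3% were higher with BDNF at 1 h, and 28.2%, 33.1% and 28.2% were lower with KCl at 1, 6 and 10 h, the other shares being those given for the members. Gabrg1 fell by 0.42 ± 0.09 with BDNF and rose by 0.60 ± 0.09 with KCl at 6 h. Gabrg3 fell by 0.44 ± 0.10 with BDNF at 10 h, while with KCl it fell by 0.60 ± 0.10 at 6 h and rose by 0.45 ± 0.10 at 10 h. Gabrq, a low-level theta subunit, rose from 20.0 normalised counts in controls to 54.9 with KCl at 6 h (1.46 ± 0.34, adjusted p = 8.54e-04).

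**Figure D4:**
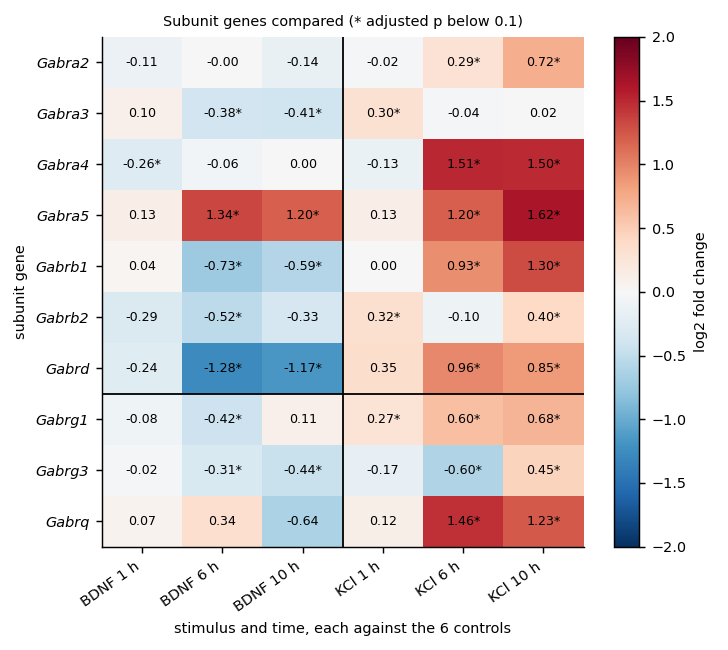
Log2 fold change against the 6 controls for the 7 members, above the line, and Gabrg1, Gabrg3 and Gabrq, below it (rows), in 6 stimulated groups (columns), coloured from blue (lower) to red (higher), with an asterisk at an adjusted p below 0.1. In the KCl column of 10 h each gene but Gabra3 has an asterisk and a value above 0.

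The remaining genes of the GABA system were taken from 3 lists. Of 16 genes of receptor anchoring, assembly and trafficking, with BDNF at 6 h 7 rose and 4 fell, while with KCl at 6 h 8 rose and 2 fell, with medians of 0.08 and 0.11 on the log2 scale. Of all genes 22.1% rose and 21.1% fell with BDNF at 6 h, and 33.4% and 33.1% did with KCl. At 1 h 6 rose and 1 fell with BDNF (21.3% and 19.0% of all genes), and 5 and 3 with KCl (26.5% and 28.2%). At 10 h 8 rose and 4 fell with BDNF (21.1% and 19.5%), and 9 and 2 with KCl (29.0% and 28.2%). The same shares over all genes apply to the lists that follow. The largest called falls over the 6 comparisons were those of Shisa7, an auxiliary protein of the receptor (-1.29 with KCl at 6 h, from 2286 to 942 normalised counts), and Slitrk3, a synaptic adhesion protein of inhibitory synapses (-1.16 with KCl at 1 h). The largest rises were those of Iqsec3, a gephyrin partner (0.92 with KCl at 10 h), and Plcl1, which binds receptor trafficking proteins (0.89 with KCl at 6 h). Of 7 tested genes of GABA synthesis, transport and breakdown, 3 were higher and 3 lower with KCl at 6 h, and 3 higher and 1 lower with BDNF at 6 h. At 1 h 3 rose and 1 fell with BDNF and 4 rose with KCl, and at 10 h 4 rose with BDNF while 3 rose and 3 fell with KCl. Slc32a1, the vesicular GABA transporter, rose by 1.05 and Gad1, which makes GABA, by 0.93 with KCl at 6 h. Slc6a11, a glial GABA transporter, fell by 1.06 with KCl at 10 h, and Aldh5a1, of GABA breakdown, by 0.78 at 6 h. Of 5 genes of GABA-B receptors and their KCTD partners, with BDNF at 6 h 1 rose and 2 fell, while with KCl at 6 h 2 rose. At 1 h 1 rose with BDNF and 1 fell with KCl, and at 10 h 1 rose with BDNF while 2 rose and 1 fell with KCl. Gabbr2, a GABA-B receptor subunit, rose by 0.75 with BDNF at 6 h, where Kctd12 fell by 0.23. Kctd8, like Gabrb1 and Gabrd, was called in opposite directions at 6 h, -0.55 with BDNF and 1.11 with KCl, at 40.2 normalised counts in controls.

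For each member the protein-coding genes with the most similar pattern were sought among 10393 genes with a mean of at least 100, by Pearson's r over the 9 group means of the log2 level. This is a description over points that share libraries and controls. Nearest to Gabra4 were Hdac9 (r = 0.995), Pam (0.995) and Slc35e3 (0.992). Nearest to Gabra5 were Ttll12 (0.985), Slco3a1 (0.982) and Gas2l1 (0.982), and nearest to Gabrb1 were Fstl5 (0.980), Dll3 (0.980) and Ncald (0.979). Gabra2 was followed by Hecw2 (0.973), Rxfp1 (0.966) and Alg14 (0.966), and Gabra3 by Ctnna2 (0.989), Ncoa2 (0.982) and Ablim3 (0.980). Gabrd was followed by Smarcc2 (0.977), Ank2 (0.970) and Sox5 (0.968), and Gabrb2, at lower values, by Leprot (0.946), Ppfia2 (0.943) and Ccser1 (0.936). Of the genes nearest to Gabra4, in KCl at 6 h Hdac9 lay 2.56 above controls on the log2 scale, Pam 1.44 and Slc35e3 0.35. Among the members themselves the highest r was that of Gabra2 and Gabra4 (0.890), and the lowest that of Gabra3 and Gabra5 (-0.572).

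Chromatin was read in 27 peaks, places of frequent transposase insertion, that overlapped a member's gene body or the 1000 bp upstream to 100 bp downstream of its starts. Gabrb1 had 11 such peaks, Gabrb2 5, Gabra2 and Gabra5 4 each, Gabra4 3, Gabrd 1 and Gabra3 none. One promoter peak belonged to both Gabra4 and Gabrb1. Counts below are scaled by LOESS, a smooth correction for library and peak strength, and tested with edgeR's quasi-likelihood test among 56383 peaks. With BDNF, 5 of the 27 peaks were called at 1 h, 1 at 6 h and 1 at 10 h, where 17.3%, 10.7% and 9.35% of all peaks were called. With KCl, 4, 2 and 1 were called at 1, 6 and 10 h, where 8.34%, 7.44% and 7.79% of all peaks were called. Between BDNF and KCl, 4, 1 and 1 were called (14.9%, 3.68% and 2.0%). In all 8 peaks were called in at least 1 of the 6 comparisons with controls, and these lay in Gabra2, Gabra4, Gabra5 and Gabrb1. The share of all peaks called in at least 1 of the 6 was not computed and cannot be below 17.3%. The 8 are thus no measure of enrichment.

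At the Gabra5 start the promoter peak (chr7:57509011-57510245) was lower with KCl, while Gabra5 RNA rose. Its scaled count ran from 126 to 177 in the 6 controls, with a mean of 150 ± 18.05 (SD, n = 6). The KCl libraries held 90.2 and 116 at 1 h, 104 and 112 at 6 h, then 117 and 98.4 at 10 h, all of them below the lowest control. The log2 fold change with KCl was -0.52 ± 0.15 at 1 h (adjusted p = 0.025), -0.49 ± 0.17 at 6 h (adjusted p = 0.083) and -0.47 ± 0.16 at 10 h (adjusted p = 0.070). With BDNF it was -0.17, 0.08 and 0.21, with no call. BDNF exceeded KCl at 10 h by 0.68 ± 0.20 (adjusted p = 0.064). Leaving out 1 library at a time gave 0.53 to 0.84 for this difference. The call was lost without the first BDNF library of 10 h (0.53) and without either KCl library of 10 h (0.81 and 0.55). At 1 h, when the peak was already lower with KCl, Gabra5 RNA was 0.13 ± 0.07 from controls and not called. The calls are near the threshold: that of 1 h was lost without the first KCl library (-0.37, adjusted p = 0.39), and those of 6 and 10 h without either KCl library of their time or without the first control library of 1 h (adjusted p = 0.15 and 0.14). Against controls of the same time neither passed (adjusted p = 0.41 and 0.13). A second Gabra5 peak, in an intron (chr7:57474228-57474456), was lower with KCl at 1 h as well (-0.90 ± 0.30, adjusted p = 0.061), with scaled counts of 22.6 and 22.9 against 34.2 to 48.7 in controls. That call was lost against controls of 1 h alone (adjusted p = 0.109), without the second control of 1 h (adjusted p = 0.103) and without either KCl library (adjusted p = 0.275 and 0.319).

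**Figure D5:**
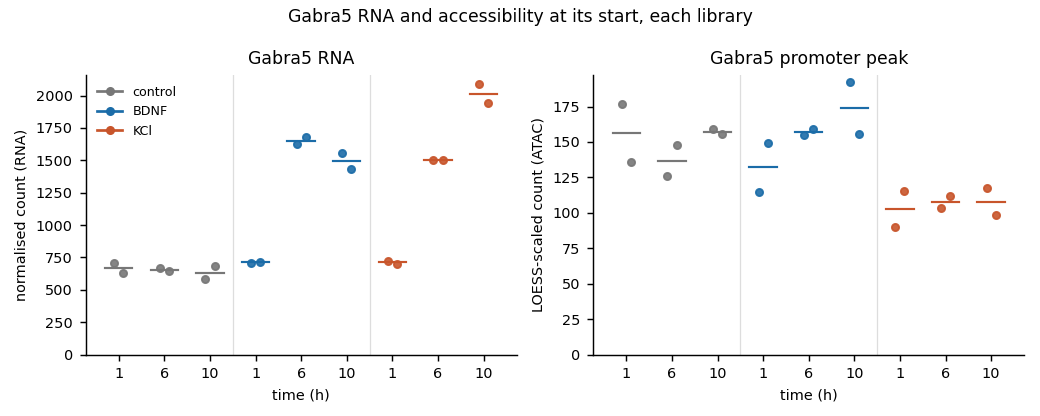
Gabra5 RNA (left, normalised count) and the Gabra5 promoter peak (right, LOESS-scaled ATAC count), each from 0, by time in hours for controls (grey), BDNF (blue) and KCl (orange). Points are libraries and bars means of 2. With KCl the RNA rises to 1499 or more at 6 and 10 h while all 6 promoter counts lie below the lowest control of 126.

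The promoter peak between Gabra4 and Gabrb1 (chr5:71657532-71658409) was called in none of the 9 comparisons. Its scaled count was 85.8 to 113 in controls, 74.8 and 115 with KCl at 6 h, then 72.04 and 74.7 with KCl at 10 h. The largest value, -0.47 ± 0.20 with KCl at 10 h, had an adjusted p of 0.17, at a time when both RNAs were higher. Of the 2 promoter peaks of Gabra2, the larger (chr5:71095712-71096586) was higher with BDNF at 1 h, with 208 and 190 against 121 to 191 in controls (0.35 ± 0.14, adjusted p = 0.077). It missed the threshold with TMM scaling (0.28, adjusted p = 0.20), with DESeq2 size factors, with the DESeq2 test, without either BDNF library and without 3 single controls. The same peak held 123 and 113 with KCl at 10 h, when Gabra2 RNA was higher, and was not called there. It was called lower with TMM scaling (-0.57, adjusted p = 0.00897), DESeq2 size factors (-0.61, adjusted p = 0.00392), the DESeq2 test (-0.62, adjusted p = 0.0132) and controls of 10 h alone (-0.64, adjusted p = 0.0375). The smaller (chr5:71095143-71095464) was not called, nor were the promoter peaks of Gabrb2 (chr11:42420232-42420597 and chr11:42420879-42421485) or of Gabrd (chr4:155397947-155398206). The Gabrd peak was low, with 9.72 to 32.2 in controls, so a small difference would not have been detectable there.

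Inside the gene bodies the largest gain was that of the Gabrb1 intronic peak at chr5:71828929-71829427, whose sequence with the AP-1 motif at position 176 of the stretch is given above. Its controls held 9.35 and 14.9 scaled counts at 1 h, 23.8 and 22.3 at 6 h, then 32.0 and 25.1 at 10 h. The pooled mean of 21.3 thus lies below both controls of 10 h. With BDNF at 10 h the peak held 69.0 and 61.1, a rise of 1.62 ± 0.31 over the pooled controls (adjusted p = 4.76e-05). It also rose at 1 h with BDNF (0.91 ± 0.31, adjusted p = 0.035) and KCl (0.91 ± 0.30, adjusted p = 0.058). The BDNF call of 1 h was lost without either BDNF library (adjusted p = 0.25 and 0.14). That of KCl was lost without either control of 1 h, and without the second KCl library its value was 0.31 (adjusted p = 0.83). At 10 h of BDNF Gabrb1 RNA was lower than in controls. A further intronic peak of Gabrb1 (chr5:71970331-71970765) rose by 1.06 ± 0.34 with BDNF at 1 h, by 1.28 ± 0.33 at 6 h, and by 1.19 ± 0.33 with KCl at 1 h, from 6.15 to 27.3 in controls to 34.4 or more in these 6 libraries. Each of these 3 calls was lost without at least 1 library of its group (adjusted p of 0.105 to 0.22). A weak peak at chr5:71803728-71804037 fell from 9.82 to 19.3 in controls to 3.40 and 1.34 with BDNF at 1 h (-2.61 ± 0.64, adjusted p = 9.93e-04), a call lost without the second BDNF library (-2.05, adjusted p = 0.113). The peak at chr5:71976434-71977103 fell by 0.60 ± 0.21 with KCl at 6 h (adjusted p = 0.068), a call lost with the DESeq2 test (adjusted p = 0.117), against controls of 6 h alone (adjusted p = 0.26), without 3 single controls and without either KCl library (adjusted p = 0.30 and 0.28). In Gabra4 the intronic peak shown above (chr5:71616879-71617000), with the AP-1 motif at position 51, rose with BDNF at 1 h from 2.24 to 8.87 in controls to 18.02 and 18.8 (1.54 ± 0.48, adjusted p = 0.015). That call was lost against controls of 1 h alone (1.25, adjusted p = 0.23) and without the second BDNF library (1.5). With TMM scaling the peak was also called higher at 10 h with BDNF (1.75, adjusted p = 0.0228) and with KCl (1.48, adjusted p = 0.052). It was likewise called at 10 h with DESeq2 size factors and the DESeq2 test, but not in the main fit. Its mean raw count of 11.6 is near the filter of 10. The other called peaks hold no AP-1 match in their central 300 bp, and a match was found in 2 of the 8 called peaks.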

How the data were processed

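RNA-seq and ATAC-seq were each available for 18 libraries, grouped by the labels. For RNA, reads were mapped to mm10 with TopHat2 and counted per gene, and the authors deposited these counts as a normalised signal, scaled for each library with DESeq2 size factors. Each column was a whole multiple of its smallest value (100% of values within 0.01), so whole reads were also recovered. For ATAC, the authors used Bowtie2 for alignment and MACS2 for peaks of each sample, and deposited DiffBind peak counts, which were raw whole numbers of at least 1 without the LOESS step of the methods. Deposited tables of fold changes and p-values were not used.

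The 16209 genes with a mean of at least 10 were tested with limma 3.58.1 (trend and robust) on log2(value + 1), a scale that understates changes of low genes. The 6 controls were pooled, and p-values were Benjamini-Hochberg adjusted over all genes. Changes over time in controls came from a fit with separate control times. Peaks were tested with edgeR 4.0.16 on LOESS offsets. On recovered reads, edgeR called 39.7% to 66.5% of genes per comparison with controls. DESeq2 1.42.0, other scalings, pseudocounts of 0.5 and 5, filters, a replicate block and leaving out each library were tried. Both scripts were tested on simulated data. Lengths were merged exons of the reference annotation. Sequences were RefSeq, GRCm38.p6, of the C57BL/6J reference, whereas the cells were CD-1, and Gabrd had no promoter entry.

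Named were all members, the other tested subunits except some items not reported here, the 2 largest called rises and falls of each other list, the 3 nearest genes of each member, each promoter peak, and the called peak of smallest adjusted p of each member. The other intronic peaks were named after their values were seen. Members and lists were chosen with earlier results of these data known.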

Additional observations from a re-analysis of the deposited data

Results flagged for a closer look

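Changes over time within a stimulus passed the test (limma, adjusted p below 0.1) in 15 member comparisons, and no library of the controls stood apart for any of the 7 members. Values are log2 differences, later time minus earlier. Between 1 and 6 h of BDNF they were 1.214 for Gabra5 (adjusted p = 5.73e-10), -0.4811 for Gabra3 (adjusted p = 0.000356), -0.7723 for Gabrb1 (adjusted p = 0.000149) and -1.044 for Gabrd (adjusted p = 0.0145). Between 1 and 6 h of KCl, Gabra4 differed by 1.642, Gabra5 by 1.076, Gabrb1 by 0.9278, Gabrd by 0.6118 and Gabra2 by 0.3154. Over the same interval Gabra3 differed by -0.3404 and Gabrb2 by -0.4259. Between 6 and 10 h of KCl, Gabra2 differed by 0.4312, Gabra5 by 0.4237, Gabrb1 by 0.3717 and Gabrb2 by 0.5062. The Gabrd value for KCl had an adjusted p of 0.0997 and lost the call with the replicate block and in 3 fits with a library left out. That for BDNF was -0.84 (adjusted p = 0.137) without the first BDNF library of 6 h. Gabrb1 between 6 and 10 h of KCl was lost without the first KCl library of either time (adjusted p = 0.292 and 0.406). The Gabrb2 and Gabra2 values that involve KCl at 6 h rest on 2 libraries that differed, 999.9 and 549 normalised counts for Gabrb2 and 2592 and 1786 for Gabra2. Without the second KCl library of 6 h or the first of 10 h, neither was called between 6 and 10 h.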

How the results depend on the processing

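Over the 6 comparisons with controls 23 member calls were made in RNA, 15 between BDNF and KCl and 15 over time. At an adjusted p below 0.01, the calls at 1 h went from 1 to 0 with BDNF, from 2 to 1 with KCl and from 2 to 0 between them. DESeq2 gave 2 with BDNF at 1 h (35.5% of genes) and 1 between the stimuli at 1 h (38.1%), where no filter also gave 1. Shares of all genes are not given for the threshold of 0.01, for no filter or for fits without 1 library. Leaving out each library gave 20 to 27 calls over the 6 comparisons (BDNF 0 to 3, 4 to 5 and 4 to 5 at 1, 6 and 10 h, KCl 1 to 3, 5 to 6 and 4 to 6), 13 to 15 between the stimuli (1 to 2, 4 to 6 and 7), and 12 to 14 over time (BDNF 3 to 4 and 0, KCl 4 to 6 and 1 to 3). Gabrb2 turned direction in 3 of these, all involving the 2 KCl libraries of 6 h. It was 0.3294 for KCl at 6 h without the second (-0.5351 without the first), 0.01745 for BDNF against KCl at 6 h without the first (-0.8471 without the second), and 0.006315 for KCl at 6 against 1 h without the second (-0.8582 without the first). The cause was not tested.

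The labels do not say whether the letters A and B pair RNA libraries, and the main fit used no pairing. Of 36 correlations of the deviations between letters, from -0.31 to 0.42, 13 were above 0.1. The 8 that involve controls of 10 h were all negative, against 3 of the other 28. The block has 1 letter term for all groups, so it cannot decide on a pairing in which the letters of the 10 h controls are exchanged. Such a pairing was not tested. With the letter as a replicate block 23, 15 and 14 calls were made, and the call lost was Gabrd, KCl at 6 against 1 h. The ATAC columns carry no letter, so no block could be fitted there.

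For peaks the 14 calls became 3 and the 6 between stimuli 1 at an adjusted p below 0.01, and 4 and 2 in promoters only. At that threshold 1 and 0 remained at 1 h with BDNF and KCl, 0 at 6 and 10 h of KCl, and 1, 0 and 0 between the stimuli. In promoters alone BDNF gave 1, 0 and 0, KCl gave 1 at 1 h and 1 at 6 h, and the stimuli differed in 1 at 1 h and 0 at 6 h. TMM gave 2 with BDNF at 10 h, 4 with KCl at 10 h and 2 between stimuli at 6 h. DESeq2 size factors gave 2 with BDNF at 6 h and at 10 h, 5 with KCl at 10 h and 2 between stimuli at 6 h. The DESeq2 test gave 2, 2, 1 and 4 with BDNF at 6 and 10 h and KCl at 6 and 10 h, and 2 between stimuli at 1 h. Of all peaks this test called 10.1%, 9.93%, 10.0% and 12.8% in these groups, and 12.6% between stimuli at 1 h. Shares over all peaks were not computed for TMM and DESeq2 size factors. Controls of the same time gave 0 with KCl at 6 h. Adding peaks up to 20000 bp beyond the genes gave 2 with KCl at 10 h and 2 between stimuli at 6 and at 10 h. Shares over all peaks are also not given for the threshold of 0.01, promoters alone or controls of the same time. Nor are they given for the added peaks or for fits without 1 library. Whether these counts moved more than those over all peaks therefore cannot be told. Leaving out each library gave 9 to 16 calls (BDNF 0 to 6, 0 to 1 and 1 to 2, KCl 1 to 5, 0 to 2 and 0 to 2) and 3 to 6 between stimuli (1 to 3, 0 to 1 and 0 to 1).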
